A study of Mus musculus with 4 samples.

Results

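Single-cell suspensions of retina capillaries can keep an endothelial cell and its pericyte together, so that both are read under one cell barcode. The barcodes described here carried RNA of both cell types. They were taken from 4 single-cell RNA libraries of mouse retina, 2 labelled Control and 2 labelled Diabetic, whose cells had been enriched with beads for CD31, the endothelial surface protein encoded by Pecam1, before droplet sequencing of transcript 3′ ends. The labels give no strain, age, diabetes model or number of animals per library, and nothing says that libraries of a group came from separate mice, so p-values measure only the spread between these libraries, which may be technical.

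Barcodes needed 500 or more unique molecular identifiers (UMIs, 1 per captured RNA molecule), 300 or more genes and no more than 20% of UMIs from the mitochondrial genome. Pairs were chosen by their measured UMIs of named genes. A barcode was a pair when Cldn5, Cdh5, Pecam1 and Flt1 together had at least 4 UMIs over at least 2 genes, Pdgfrb, Kcnj8 and Abcc9 together had at least 3 UMIs over at least 2 genes, and the smooth muscle genes Acta2, Tagln and Myh11 had at most 5. Barcodes that a doublet caller would remove were kept. The rule took 1619 of 19716 passing barcodes, or 8.21%. They were 419 in Control 1, 168 in Control 2, 691 in Diabetic 1 and 341 in Diabetic 2. Barcodes with the endothelial genes and no pericyte UMI numbered 3643 and are called endothelial-only. Barcodes with the pericyte genes and at most 1 endothelial UMI numbered 224 and are called pericyte-only.

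Pericytes are mural cells that sit in the basement membrane of capillaries and touch the endothelium through gaps in it. Endothelial PDGF-B recruits them through the receptor PDGFRB, and they in turn send angiopoietin 1 to the endothelial receptor TIE2, encoded by Tek. The retina is known for its dense pericyte coverage, which supports the blood-retina barrier, and pericyte loss is a classical lesion of diabetic retinopathy.

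The label was checked against its markers. Every one of the 10 endothelial and 10 pericyte markers had UMIs in the pairs of all 4 libraries. The same held in rod photoreceptor barcodes with at most 1 UMI of each set of rule genes, so presence alone does not bear on the label. The rule used 4 of the endothelial and 3 of the pericyte markers, so 6 and 7 were independent of it. Pericyte markers summed to 8697 to 11225 CPM (a gene's UMIs scaled to a common total per library). In those rod barcodes they summed to 907 to 1163 CPM. The 8 smooth muscle markers summed to 247 to 341 CPM, which is a description only, since the rule limits 3 of them, and Cnn1 was at 0. The counts cannot tell apart 2 attached cells, 2 loose cells caught in one droplet, and 1 cell with free RNA of the other, so "pair" names a barcode with both kinds of RNA. In these sums, fewer cells of a type and less RNA per cell cannot be told apart either.

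The pairs also held RNA of other cells, and its amount differed between libraries. In 74 pair barcodes at least 5% of UMIs came from 10 rod photoreceptor markers, and these are called rod-rich. They were 36, 2, 26 and 10 in the order Control 1, Control 2, Diabetic 1, Diabetic 2. Because they were deep, with median depths from 38911 to 98400.5 UMIs, they held 31.2%, 7.34%, 16.4% and 14.1% of all pair UMIs. A further 2 pair barcodes passed a microglia rule. Results are therefore given for all pairs and for the 1543 pairs without rod-rich or microglia barcodes. Erythrocyte markers ran from 3555 to 14393 CPM with all 5 markers present in each library, highest in Control 2. Neutrophil markers were at 0.373 to 0.385 CPM in Control against 174 and 14.5 CPM in Diabetic. Leaving out barcodes with blood cell RNA kept the 12 genes called higher and the 1 called lower in Diabetic pairs. The 4 libraries held 29792902 to 58792636 UMIs, and any pair of libraries shared 5 to 9 barcode sequences. Of the pair barcodes, 7 had a sequence that occurred in another library, and none was a pair in both.

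In these CD31-enriched libraries, most barcodes with pericyte RNA also carried endothelial RNA. Of those passing the pericyte side of the rule, 81.8% (95% Wilson interval 78.3 to 84.9, 419 of 512) in Control 1, 82.4% (76.5 to 87.0, 168 of 204) in Control 2, 85.1% (82.5 to 87.4, 691 of 812) in Diabetic 1 and 86.5% (82.8 to 89.6, 341 of 394) in Diabetic 2 also passed the endothelial side. Both Diabetic shares were above both Control shares, and the intervals of Control and Diabetic overlapped. An exact two-sided permutation test over libraries gave p = 0.33, the smallest that 2 against 2 allows. Intervals and floors here cover counting error only. The gene of CD31, Pecam1, is in the endothelial side of the rule. These shares thus describe the enriched cells and not the retina, and the part of the enrichment in them was not tested.

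The reverse share was lower. Of barcodes passing the endothelial side, 25.3%, 27.4%, 22.7% and 23.9% passed the pericyte side, in the same library order, so both Diabetic shares were below both Control shares (exact two-sided permutation p = 0.33). Depth moved these shares: after every barcode was thinned to 1000 UMIs, 50.3%, 50.7%, 56.4% and 53.3% of pericyte-rule barcodes still passed the endothelial side, and 8.44%, 7.90%, 6.51% and 7.14% of endothelial-rule barcodes passed the pericyte side. Under thinning both orders of the groups held. With at most 10% mitochondrial UMIs the first share was 86.4%, 84.5%, 85.6% and 89.6%, so Diabetic 1 lay below Control 1 and the groups overlapped. The second share kept its order there, at 27.3%, 29.98%, 23.1% and 24.8%. As a background, 11% of 172 microglia barcodes passed the endothelial side and 2.91% the pericyte side. For 1235 Müller glia barcodes the shares were 21.5% and 5.18%, and for 7915 barcodes with at least 5% rod-marker UMIs 13.3% and 1.21%. Median depths were 3493, 2043 and 6895 UMIs for these 3 classes, against 8028 for pericyte-rule barcodes.

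**Figure D1:**
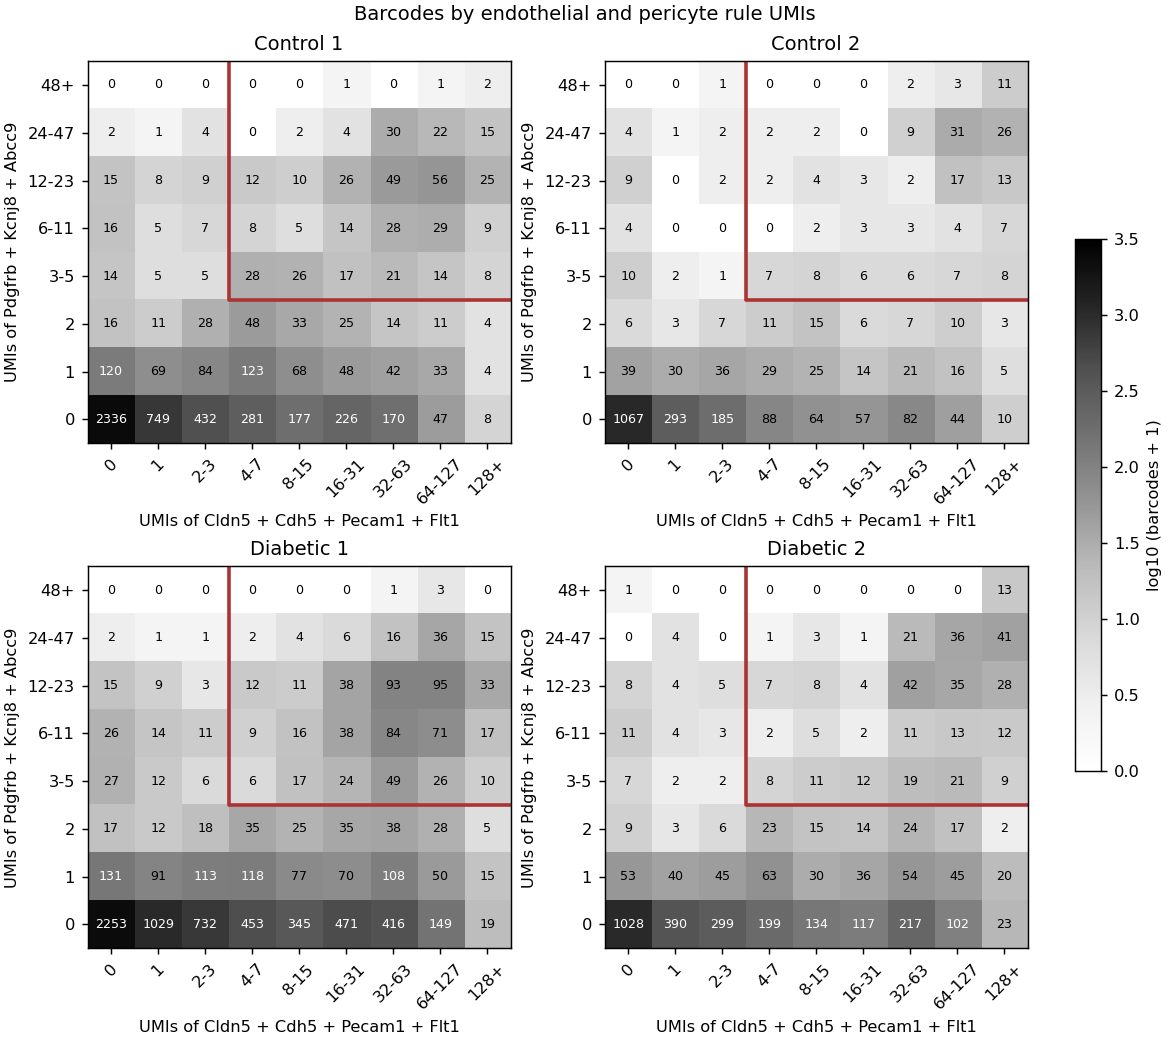
Number of passing barcodes per library by summed UMIs of the 4 endothelial rule genes (x axis) and of the 3 pericyte rule genes (y axis), for barcodes within the smooth muscle limit; shading is log10 (barcodes + 1), and red lines mark the UMI limits of the rule, which also asks for at least 2 genes on each side. Most barcodes with at least 12 pericyte UMIs also have at least 16 endothelial UMIs.

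Pairs were deeper than either single class. Their median depth was 8602, 13294.5, 7949 and 11790 UMIs in Control 1, Control 2, Diabetic 1 and Diabetic 2. Endothelial-only barcodes had 3454, 4228, 3202 and 4725, and pericyte-only barcodes 1700, 1754, 1380 and 1925. The pair median exceeded the sum of the other 2 medians in every library. Median endothelial rule UMIs in pairs were 53, 96, 53 and 79, and median pericyte rule UMIs 14, 24, 12 and 18. These values were used by the rule and are given as a description. The depth order is a description too. The minimum UMIs asked of pairs favour deep barcodes, and the limits set on the single classes favour shallow ones. It does not tell how many cells a barcode held.

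Scrublet, a caller that scores barcodes by likeness to simulated doublets, called 36, 6, 87 and 27 of the pairs when set to call the expected number, or 8.59%, 3.57%, 12.6% and 7.92%. Among all passing barcodes it called 4.75%, 2.26%, 6.37% and 3.44%. Its automatic threshold called 7, 1, 0 and 2 pairs and marked no barcode at all in Diabetic 1, so it had not worked there. Most pairs were thus not called by either setting.

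At the edge of the rule, barcodes with exactly 3 pericyte UMIs (36, 11, 45 and 26 per library) had Rgs5 at 622, 1250.0, 1185 and 795 CPM. Endothelial-rule barcodes just outside, with 2 pericyte UMIs, had 531, 603, 979 and 780 CPM. The Rgs5 level was higher inside the limit in each library, most of all in Control 2, where only 11 barcodes lay. It was far below that of pairs as a whole on both sides. The pericyte markers Vtn and Higd1b did not keep this order throughout. Vtn had 536 CPM inside and 587 outside in Diabetic 2, and Higd1b 16.5 inside and 17.4 outside in Control 2. In its other libraries each was higher inside.

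Pericyte genes that the rule did not read were at an intermediate level in pairs. Rgs5, a regulator of G protein signalling and a standard pericyte marker, lay on chromosome 1 (169655501-169695813, GRCm38, + strand). It had 4388 and 5704 CPM (Control) against 4897 and 4873 CPM in Diabetic pairs. Pericyte-only barcodes had 8910 and 10230 CPM (Control) against 10224 and 11301 CPM in Diabetic, while endothelial-only barcodes stood between 401 and 676 CPM. Cspg4, the NG2 proteoglycan of mural cells, had 140, 191, 175 and 168 CPM in pairs against 0.744 to 3.48 CPM in endothelial-only barcodes. Higd1b, a mitochondrial protein gene used as a pericyte marker, had 242, 264, 317 and 264 CPM against 8.43 to 16.5 CPM. Vtn, which encodes vitronectin, was less specific, since rod barcodes (at least 5% of UMIs from rod markers, at most 1 UMI of each set of rule genes) held 819 to 1130 CPM of it and pairs 2191 to 2896 CPM.

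Summed over 27 pericyte identity genes, the level in pairs was 27.3%, 29.7%, 30.9% and 32% of that in pericyte-only barcodes of the same library, both reference classes taken without rod-rich barcodes. Over the endothelial identity genes, pairs reached 67.3%, 82.3%, 75.5% and 92.1% of the endothelial-only level. Without rod-rich or microglia pairs these became 32% to 37.5% and 88.5% to 107%. Per UMI, the pericyte genes thus stood further below their single class than the endothelial genes did, in each of the 4 libraries. Among single pairs, the pericyte share of all identity-list UMIs spread widely: its median was 44.7%, 44.6%, 42.6% and 41.2%, with 10th percentiles from 18.9% to 21.9% and 90th percentiles from 65.6% to 68.5%. A fit of pair RNA as a mixture of both single classes gave pericyte weights from 39.5% to 55.0%, but these depended on the fit and are not used further.

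**Figure D2:**
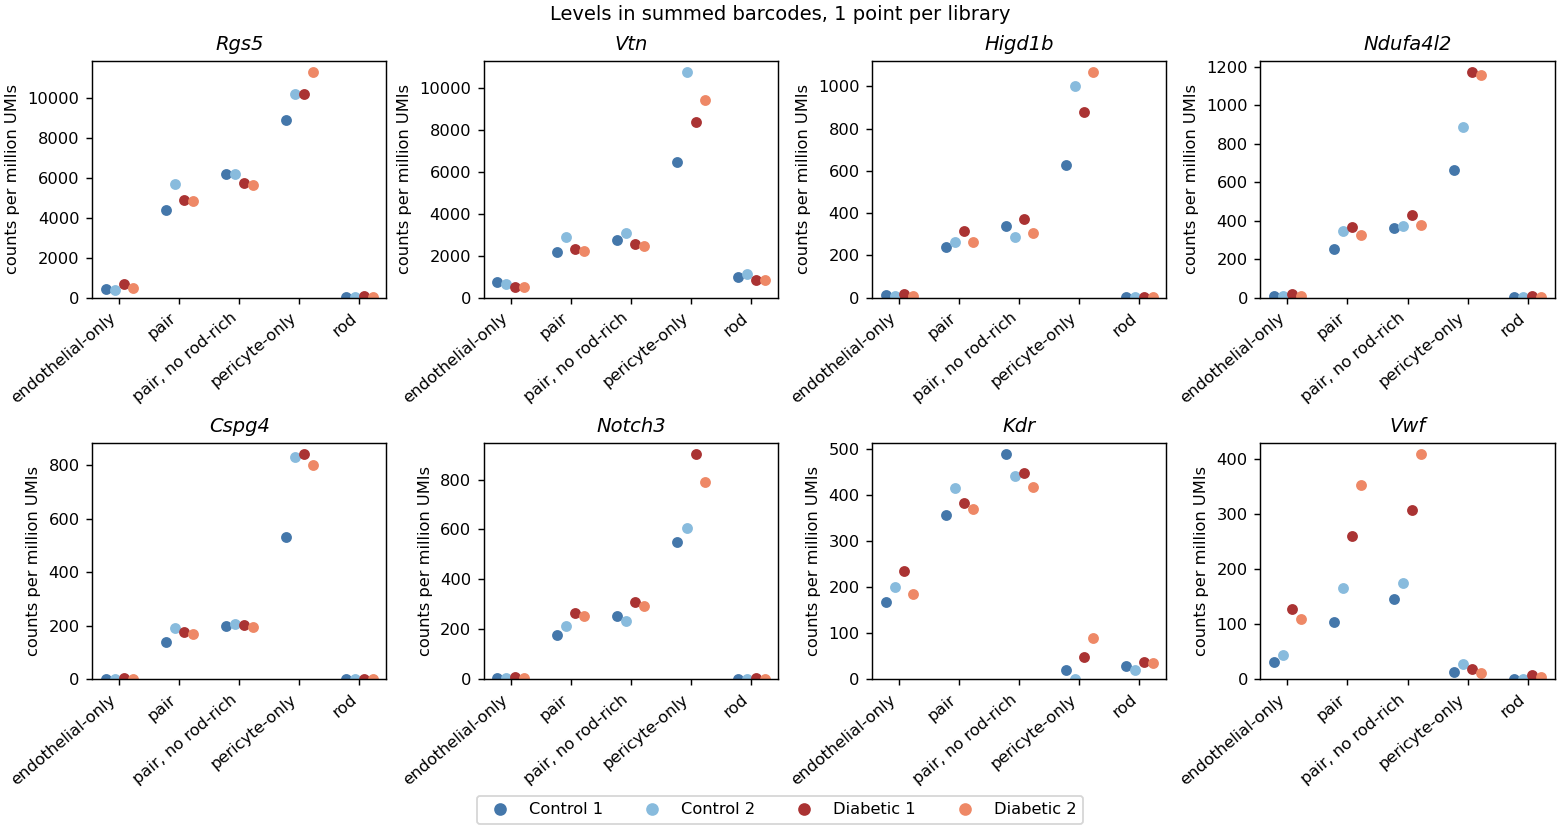
CPM of 6 pericyte and 2 endothelial genes (y axes, linear from 0) in the summed UMIs of each class of barcode (x axis), 1 point per library. The pericyte genes are high in pericyte-only, intermediate in pair and lower in endothelial-only barcodes, of which 62.9% to 71.6% still hold Rgs5. Rod barcodes hold Vtn, and 16.6% to 25.5% of them hold Rgs5. Kdr and Vwf are higher in pairs than in endothelial-only barcodes, where rod-rich barcodes hold 55.2% to 71.2% of UMIs.

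Diabetic and Control pairs were then compared over the summed UMIs of each library, with edgeR's quasi-likelihood test and Benjamini-Hochberg adjustment over all genes tested. Calls needed an adjusted p below 0.05, and the rule's own genes were left out of counts. In all pairs, 12 genes rose, which is 0.0866% of the 13857 tested, and 1 fell (0.00722%). Without rod-rich or microglia pairs, 169 genes rose (1.3% of 13043) and 89 fell (0.682%). All 13 genes called in all pairs were called in the same direction there. At an unadjusted p under 0.05 there were 861 and 1706 genes. DESeq2 called 53 higher (0.352%) and 7 lower (0.0465%) in all pairs, and 102 higher (0.704%) and 52 lower (0.359%) in the smaller set. Of the edgeR calls in the smaller set, DESeq2 kept 98 of 169 higher and 46 of 89 lower. Among genes named below, it did not call Art3, Mustn1, Gkn3, Vegfc, Timp1, Ccn1, Selp, Egr3, Iigp1 and Cd74 there. The median log2 fold change of all genes was -0.0099 and 0.015. Higher and lower below are Diabetic against Control.

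None of the 27 pericyte identity genes was called by edgeR in all pairs, where 0.0938% of genes were called in either direction, and their median log2 fold change was 0.12. Rgs5 had a log2 fold change of -0.08 (95% interval -0.68 to 0.52), and the Control and Diabetic libraries overlapped. Vtn had -0.21 (-0.76 to 0.35), Higd1b 0.17 (-0.24 to 0.58) and Cspg4 0.01 (-0.45 to 0.48). The hypoxia-linked Ndufa4l2 had 0.18 (-0.31 to 0.66) and Cox4i2, a cytochrome oxidase subunit isoform, 0.12 (-0.32 to 0.57). The Notch receptor gene Notch3 had 0.36 (-0.04 to 0.77), the peptidase gene Anpep 0.38 (-0.23 to 0.99), and Atp13a5, a transporter gene of brain pericytes, -0.07 (-0.43 to 0.29). These intervals leave room for changes in either direction.

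Without rod-rich or microglia pairs, 3 of the 27 rose and none fell, with a median of 0.045. Here 1.98% of genes were called in either direction. Cd248, which encodes the mural surface protein endosialin, had 50.4 and 56.7 CPM (Control) against 105 and 107 CPM in all Diabetic pairs, with no overlap. Its log2 fold change was 0.84 (adjusted p = 0.00244) in that smaller set and 0.95 (adjusted p = 0.128) in all pairs. DESeq2 called Cd248 in all pairs (adjusted p = 0.0483), and edgeR with the replicate number as a block called Cd248, Ifitm1 and Art3. The interferon-inducible membrane protein gene Ifitm1 had 97.1, 108, 184 and 196 CPM in all pairs and rose by 0.75 in the smaller set (adjusted p = 0.00526). Art3, an ecto-ADP-ribosyltransferase gene, had 66.7, 80.2, 118 and 116 CPM and rose by 0.54 there (adjusted p = 0.0194). Of 14 tested contractile genes, 2 rose in the smaller set, namely Mustn1 (0.90, adjusted p = 0.0115) and the LIM protein gene Crip1 (0.67, adjusted p = 0.00601). None was called in all pairs. In endothelial-only barcodes without rod-rich ones, where 2.72% of genes rose, edgeR also called Ifitm1 and Mustn1 higher.

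**Figure D3:**
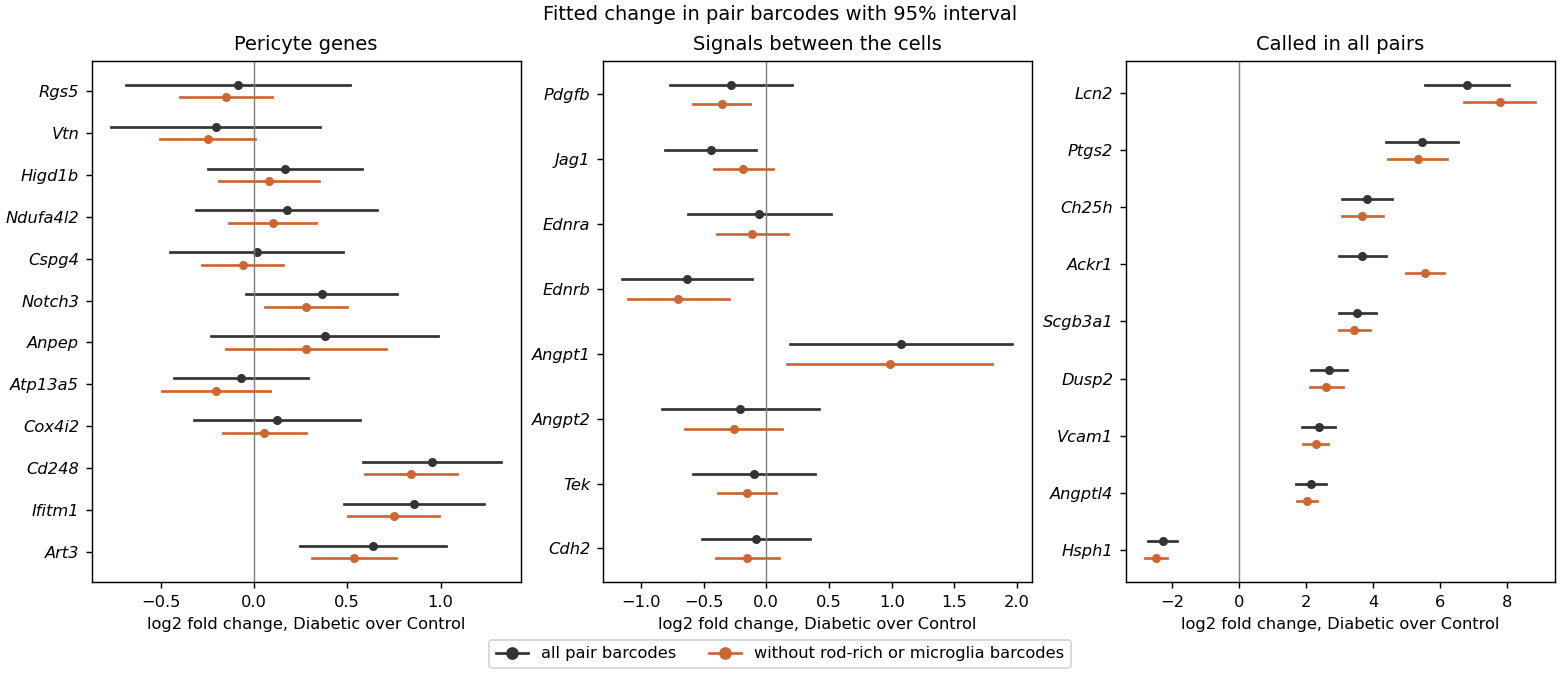
Fitted log2 fold change (x axes, Diabetic over Control) with its 95% interval for pericyte genes, genes of signals between the cells, and 9 of the 13 genes called in all pairs; black is all pair barcodes, orange those without rod-rich or microglia barcodes. In all pairs the intervals of Rgs5, Vtn, Higd1b and Cspg4 include 0, those of Lcn2 to Angptl4 lie above it and that of Hsph1 lies below it.

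Signals between the cells showed no called gene in either set, where 0.0938% and 1.98% of all genes were called in either direction. This covered 12 endothelial ligands for mural cells, 13 mural receptors, 15 endothelial receptors for mural ligands, 16 contact and gap junction genes and 19 basement membrane genes, as well as 10 mural ligands for the endothelium, of which 8 were tested in the smaller set. Medians ran from -0.07 to 0.30 in all pairs. Pdgfb had 199, 277, 194 and 207 CPM and a log2 fold change of -0.28 (-0.77 to 0.20). Tek had -0.10 (-0.59 to 0.39), its antagonist ligand gene Angpt2 -0.21 (-0.83 to 0.42), the endothelin receptor gene Ednra -0.05 (-0.63 to 0.52) and N-cadherin, Cdh2, -0.08 (-0.51 to 0.35). The libraries of the groups overlapped for Tek, Angpt2, Ednra and Cdh2.

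Other genes of these lists had larger differences that did not pass the test. Angpt1, the pericyte ligand of TIE2, was low, with 2.88 and 2.98 CPM (Control) against 5.44 and 7.26 CPM in Diabetic. Its log2 fold change was 1.07 (unadjusted p = 0.0236, adjusted p = 0.687 in edgeR). Ednrb had -0.63 (adjusted p = 0.687) and Jag1, a Notch ligand gene, -0.44 (adjusted p = 0.687). Plxnd1 had -0.51, Ctnnb1 -0.31 and the connexin 45 gene Gjc1 0.25. The laminin gene Lamb1 had -0.39 and the type IV collagen gene Col4a2 0.34. None of these was called in either set of pairs. In endothelial-only barcodes without rod-rich ones edgeR did call genes of these lists, all lower, where 2.32% of all genes fell. The genes were Pdgfb, Jag1, Dll4, Nrp1, S1pr1, Plxnd1 and Fbln5.

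Among inflammation and leukocyte capture genes, 8 of 32 tested rose and none fell in all pairs, and 16 of 31 rose in the smaller set. Of all genes, 0.0866% rose in all pairs and 1.3% in the smaller set. The list's median log2 fold change was 1.13 in all pairs. Lcn2, which encodes the iron-siderophore carrier lipocalin 2 (chromosome 2, 32384633-32388252, GRCm38, - strand), had 4.04 and 1.49 CPM (Control) against 220 and 483 CPM in Diabetic pairs. Its log2 fold change was 6.80 (adjusted p = 0.00829). Ackr1, an atypical chemokine receptor of venules, had 8.84, 4.10, 78.7 and 103 CPM and rose by 3.67. Vcam1, the adhesion molecule for lymphocytes and monocytes (chromosome 3, 116109949-116129688, - strand), had 26.0, 27.2, 118 and 163 CPM and rose by 2.37. No Diabetic library overlapped a Control library for these 3 genes, as for 21.1% of all genes in the higher direction and 14.4% in the lower (26.4% and 17.5% in the smaller set).

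Ptgs2, the inducible cyclooxygenase, had 0.769, 1.49, 35.0 and 59.4 CPM and rose by 5.46 (adjusted p = 0.00829). Ch25h, the cholesterol 25-hydroxylase, had 6.34, 7.46, 72.7 and 123 CPM and rose by 3.81. Lrg1, a leucine-rich glycoprotein gene linked to retinal angiogenesis, had 0, 2.61, 144 and 246 CPM, and its fitted log2 fold change was 7.67. Serpina3n, a serine protease inhibitor gene, had 1 UMI in Control pairs and 622 in Diabetic pairs, a ratio of sums of 395 with a counting interval from 70.7 to 15636. E-selectin, Sele, had 1 and 106 UMIs, a ratio of 67.4 (11.8 to 2685). Csf2rb, a cytokine receptor subunit gene outside the list and chosen after its values were seen, had 1 and 132 UMIs, a ratio of 83.9 (14.8 to 3338). With 1 Control UMI each, these 3 genes were higher in Diabetic pairs by a ratio known only within a wide range.

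P-selectin, Selp, had no UMI in Control pairs and 102 in Diabetic ones. Against a floor of 3 counts over the Control group this was at least 21.6-fold higher, and it was called in the smaller set (adjusted p = 0.0203) but not in all pairs (0.286). Icam1 rose by 1.90 in the smaller set (adjusted p = 0.00134) and had 2.00 in all pairs (adjusted p = 0.0664). Of 12 venous genes, 4 were called higher in all pairs and 8 in the smaller set, against 0.0866% and 1.3% of all genes. The 4 are Lcn2, Lrg1, Ackr1 and Vcam1, which the inflammation list also holds. The other genes of the 8 are Icam1 and Selp, also in the inflammation list, and Slc38a5 and von Willebrand factor, Vwf (1.13, adjusted p = 0.00241). In the smaller set, where 0.682% of all genes fell, edgeR called some capillary and arterial genes lower and none higher. Of 10 capillary genes 4 fell, including carbonic anhydrase 4, Car4 (-1.0, adjusted p = 0.0025), and Spock2 (-0.58, adjusted p = 0.0207). Of 13 arterial genes 3 fell, namely Gkn3 (-1.53), Vegfc (-1.07) and Alpl (-0.70), and DESeq2 called only Alpl of these. The arterial median was -0.19, with 5 of 13 above 0. None of the capillary or arterial genes was called in all pairs by edgeR.

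For Vcam1, Ptgs2 and Ackr1 the Diabetic pairs poor in pericyte RNA had far higher levels than those rich in it. The 1543 pairs were split in each library at the median pericyte share of identity UMIs, and no test was made because the split and the genes were chosen after the values were seen. Vcam1 had 51.2 and 37.5 CPM (Control) against 234 and 298 CPM in Diabetic in the endothelial-rich pairs. In the pericyte-rich pairs it had 14.5, 18, 15.2 and 19.3 CPM, so the groups overlapped. Ptgs2 had 72 and 112 CPM in the endothelial-rich Diabetic pairs and 2.34 and 2.84 CPM in the pericyte-rich ones. Ackr1 had 152 and 189 against 8.99 and 2.27 CPM in the same libraries. The 2 kinds also differed in depth, with medians of 9591 and 14001.5 UMIs in the endothelial-rich Diabetic pairs and 6179 and 8471 in the pericyte-rich ones. The part of depth in this was not tested.

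Other inflammatory genes also separated the groups in pericyte-rich pairs, at lower levels. There Ch25h had 2.06 and 4.74 CPM in Control and 16.4 and 26.2 in Diabetic, Icam1 13.1, 9.47, 23.1 and 26.7, Lrg1 0, 0, 14.9 and 30.1, and Serpina3n 0, 0.947, 3.13 and 15.9. In endothelial-rich Diabetic pairs Ch25h had 140 and 218 CPM and Lrg1 289 and 451. Lcn2 differed between the Diabetic libraries: the pericyte-rich pairs had 10.6 CPM in Diabetic 1 but 307 CPM in Diabetic 2. Genes of other lists also separated the groups in both kinds of pair. Angptl4 had 21.2, 22.0, 108 and 115 CPM in the endothelial-rich pairs and 28.2, 24.6, 79.3 and 79 CPM in the pericyte-rich pairs. Fabp4, a fatty acid binding protein gene chosen after its values were seen, had 33.8 and 29.2 CPM in Diabetic endothelial-rich pairs and 34 and 22.2 CPM in pericyte-rich ones, against 2.12 to 5.51 CPM in Control pairs of either kind. Hsph1 was at 12.6 and 10.6 CPM and at 15.6 and 18.2 CPM in the Diabetic pairs, against 62.5 to 89.95 CPM in Control pairs of either kind.

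**Figure D4:**
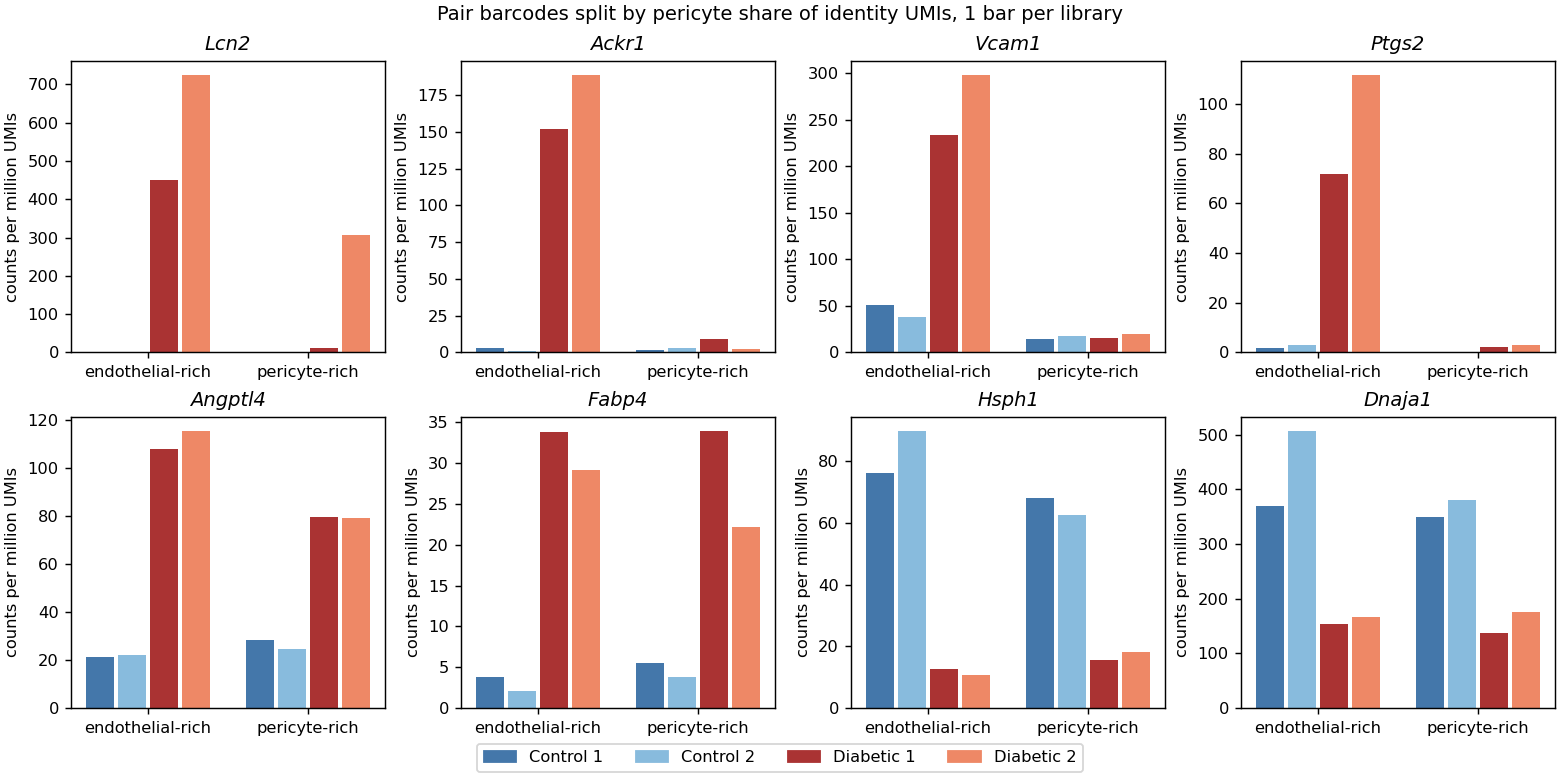
CPM (y axes, linear from 0) of 8 genes in endothelial-rich and pericyte-rich pairs, split at the median without rod-rich or microglia barcodes, 1 bar per library. Vcam1 and Ptgs2 are highest in Diabetic endothelial-rich pairs, while Angptl4 and Fabp4 are higher and Hsph1 and Dnaja1 lower in Diabetic pairs of both kinds.

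Glucose, insulin and lipid response genes rose in part. Angptl4, a secreted inhibitor of lipoprotein lipase (chromosome 17, 33773750-33781830, - strand), was the 1 called of 28 in all pairs, where 0.0866% of all genes rose. It had 16.7 and 21.3 CPM (Control) against 81.6 and 86.9 CPM in Diabetic, and rose by 2.14 (adjusted p = 0.00829). In the smaller set 11 rose and 1 fell, where 1.3% of all genes rose and 0.682% fell. There Fabp4 rose by 2.96, the glucocorticoid-induced Fkbp5 by 1.66, the insulin-like growth factor binding protein genes Igfbp4 by 1.43 and Igfbp3 by 1.10, and Txnip, the glucose-induced thioredoxin inhibitor, by 0.56. The adjusted p was 0.000157 for Fabp4 and 0.0207 for Txnip. Igfbp5 fell by 0.97 (adjusted p = 0.0239). The list's median was 0.41 in all pairs and 0.37 in the smaller set.

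Fabp4 depended on rod-rich barcodes. In all pairs its level was 17.1, 7.46, 35.3 and 29.8 CPM and its log2 fold change 1.30 (adjusted p = 0.346). Rod barcodes held 32.6 to 40.9 CPM in all 4 libraries. Scgb3a1, a secretoglobin gene, and Dusp2, a phosphatase gene of the MAP kinase pathway, were the other genes called in all pairs, with rises of 3.52 and 2.68.

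Among heat shock genes 1 of 22 fell in all pairs and 11 of 22 in the smaller set, and none rose. Of all genes, 0.00722% and 0.682% fell. Hsph1, the HSP110 co-chaperone (chromosome 5, 149614287-149636376, - strand), had 65.2 and 76.1 CPM (Control) against 14.6 and 14.7 CPM in Diabetic pairs. It fell by 2.29 on the log2 scale (adjusted p = 0.00829) and was the 1 called in all pairs. In the smaller set the HSP40 gene Dnaja1 fell by 1.39 (adjusted p = 0.000253), the HSP90 co-chaperone Chordc1 by 1.04 (0.0017), the HSC70 gene Hspa8 by 0.78 (0.0304) and the HSP90 gene Hsp90aa1 by 0.61 (0.0218). The list's median was -0.48 in all pairs and -0.50 in the smaller set. Hspb8 had 0.89 (adjusted p = 0.441) and was not called. The lower level was not limited to vascular barcodes. Summed over the 22 genes, rod barcodes had 7406 and 7960 CPM in Control against 6167 and 6045 CPM in Diabetic. Pairs had 7508 and 7614 CPM in Control against 5531 and 5655 CPM in Diabetic. No test was made in rod barcodes.

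Promoter stretches of 3 of these genes are shown because heat shock factor, the textbook activator of chaperone genes, binds repeats of GAA in alternating orientation. Promoters of 250 bases before to 50 after each start were taken from RefSeq (GRCm38.p6), and 19 of the 22 heat shock genes were matched. The palindrome GAANNTTC, which reads the same on both strands, was found in 11 of the 19 (57.9%) and in 7.86% of all 32851 promoters (9.04% of 27025 genes with any promoter). Of 22 matched pericyte identity genes 4 had it (18.2%). A match describes the letters only. The windows below of 30 bases are written 5′ to 3′ on the gene's strand with the palindrome in capitals.
Hsph1: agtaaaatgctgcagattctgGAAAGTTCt
Chordc1: caaccgGAACGTTCggGAAAATTCctgaag
Dnaja1: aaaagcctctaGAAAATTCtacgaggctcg
They lie at chr5:149636287-149636316 (- strand), chr9:18292257-18292286 (+ strand) and chr4:40722333-40722362 (+ strand).

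Of the immediate early genes edgeR called none of 25 in all pairs and 8 of 24, all higher, in the smaller set, where 1.3% of all genes rose. Without rod-rich barcodes, 8 of 23 rose in endothelial-only barcodes (2.72% of all genes) and 4 of 15 in pericyte-only ones (0.344%). In all pairs DESeq2 called Fos, Egr1 and Atf3, and edgeR with the replicate block called 9. By edgeR in the smaller set of pairs, Fos rose by 1.11 (adjusted p = 0.00119), Atf3 by 1.41 (0.000227), Egr1 by 1.05 (0.00126) and Egr3 by 1.04 (0.0393). Fos had 746, 1110, 1945 and 2145 CPM in all pairs, with no overlap, but an adjusted p of 0.322. Myc had no UMI in Control pairs and 44 in Diabetic ones, at least 9.32-fold higher against the floor of 3 counts over the group. The median mitochondrial share of pairs was 4.69% and 4.54% in Control and 2.38% and 3.06% in Diabetic, so it moved with the groups, and a limit of 10% in place of 20% kept all 13 calls in all pairs; its part in the other changes was not tested.

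Fibrosis and mural activation genes gave no call among 23 in all pairs and 4 higher in the smaller set, where 1.3% of all genes rose. Spp1, osteopontin, rose by 2.87 there (adjusted p = 0.00443), Ccn1 by 1.49 (0.00627), Adamts1 by 0.68 (0.0188) and the metalloproteinase inhibitor gene Timp1 by 3.71 (0.0144). Timp1 had only 3 Control UMIs in that set, and its ratio of sums was 13.9 with a counting interval from 4.56 to 68.9. The list's median was 0.18 in all pairs and 0.11 in the smaller set. Adamts9 had 1.26 and was not called (adjusted p = 0.0806).

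The 12 tested protein genes of the mitochondrial genome all had negative log2 fold changes, with a median of -0.45 in all pairs and -0.45 in the smaller set. None was called in all pairs. In the smaller set, where 0.682% of all genes fell, mt-Nd2 fell by 0.65 (adjusted p = 0.0489 in edgeR). The UMIs of these 12 genes are part of the mitochondrial share of pairs given above, so these are not separate observations.

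Of 30 blood-retina barrier genes 1 rose and 2 fell in the smaller set, namely the amino acid transporter gene Slc38a5 (0.91, adjusted p = 0.0175), Slc22a8 (-0.59, 0.0108) and Slc7a1 (-0.47, 0.0377), and the lactate transporter gene Slc16a1 had 0.46 (0.0814). Of all genes in the smaller set 1.3% rose and 0.682% fell. In endothelial-only barcodes without rod-rich ones 1 of 30 barrier genes, Slc38a5, rose. There 5 fell, namely Mfsd2a, Slco1c1, Slc7a1, Fzd4 and Cav1, against 2.32% of all genes. Of 29 endothelial identity genes 4 rose and 1 fell in the smaller set of pairs, with Ctla2a at 1.03 and Ly6a at 0.59. Of 23 interferon genes 2 rose and 4 fell. Ifi27l2a, an interferon-induced gene, had 16.5 and 17.5 CPM (Control) against 5.02 and 4.39 CPM in Diabetic pairs and fell by 2.01 in the smaller set (adjusted p = 0.00131), but was not called in all pairs (0.0821). Rsad2 fell by 0.86, while Iigp1 rose by 0.68 and Ifitm2 by 0.52. The hypoxia gene P4ha1 fell by 0.77, the growth arrest gene Gadd45g rose by 0.95, the MHC class II chaperone gene Cd74 by 1.67 and Hmgb2 by 0.67, all in the smaller set. No antioxidant gene of 22 was called in either set.

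**Figure D5:**
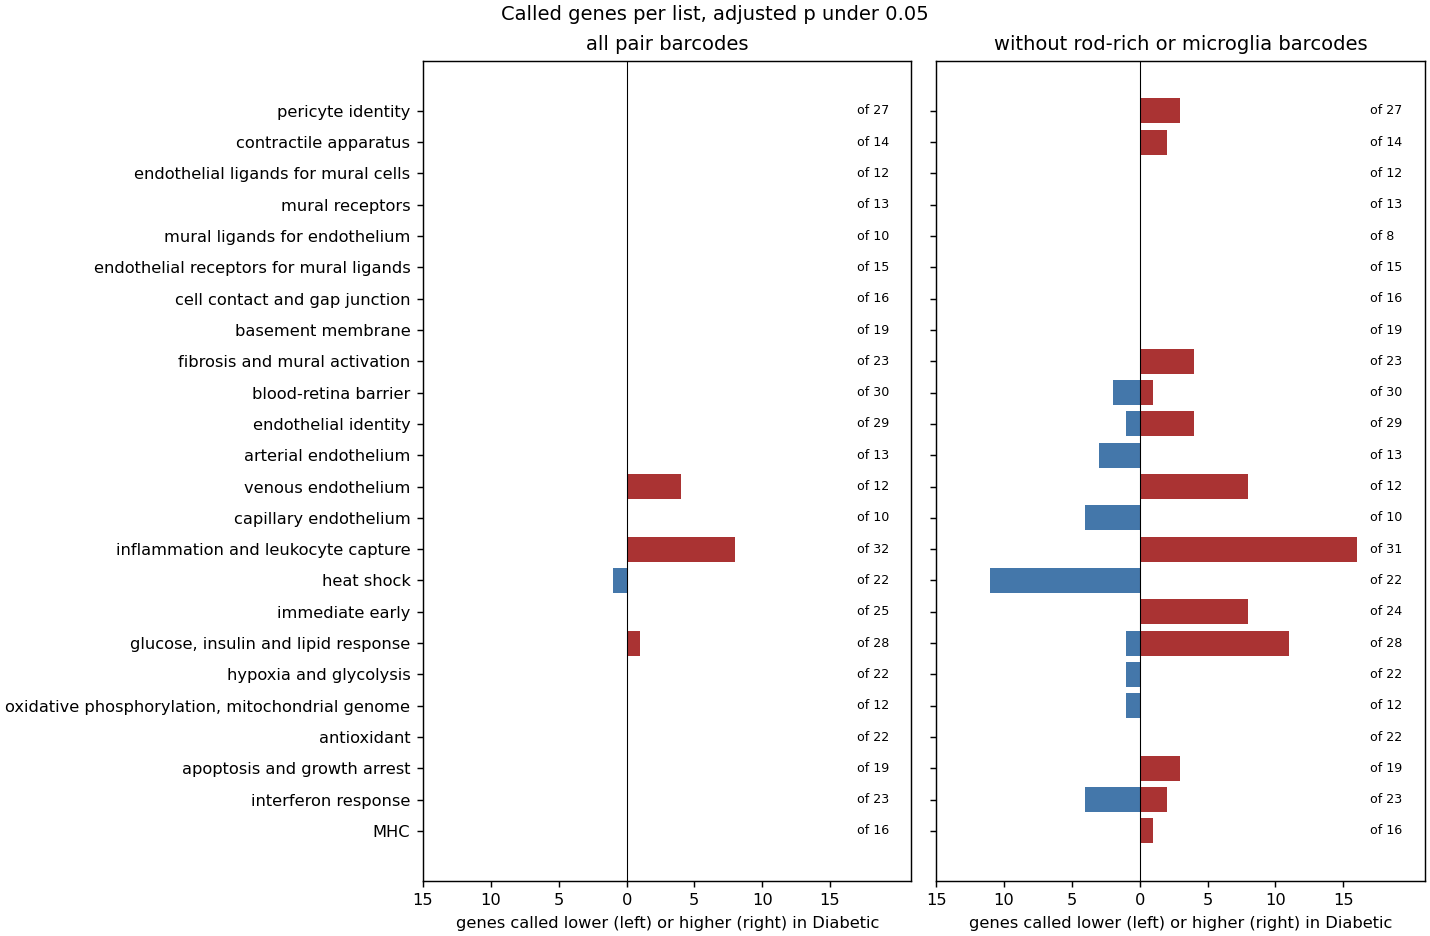
Number of genes per list called lower (bars to the left) or higher (bars to the right) in Diabetic pairs at an adjusted p under 0.05, with the number tested at the right of each panel. In all pairs the calls shown lie in the inflammation, venous, heat shock and glucose lists, and the inflammation and venous lists share members. Csf2rb, Scgb3a1 and Dusp2 were called there but are in no list shown. Without rod-rich or microglia barcodes more lists have calls while the cell-to-cell signal lists have none.

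The same genes were set beside the single classes, taken without rod-rich barcodes, and all share the same libraries. With rod-rich barcodes kept, 5.09% of genes rose and 2.8% fell in endothelial-only barcodes, and 0.178% and 0.071% in pericyte-only barcodes. Without them 2.72% of 12918 genes rose and 2.32% fell in endothelial-only barcodes. Angptl4 had a log2 fold change of 1.55 (adjusted p = 0.00348) there and 2.46 (0.023) in pericyte-only barcodes, against 2.03 in pairs. Lcn2 had 6.48 and Vcam1 1.72 in endothelial-only barcodes, and neither was tested in pericyte-only barcodes. Hsph1 had -2.38 in endothelial-only barcodes. In pericyte-only barcodes 7 genes rose (0.344% of 2034) and none fell at 137 unadjusted p under 0.05, none of them among the 24 tested pericyte identity genes. Cd248 had 0.94 there (adjusted p = 0.445).

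The difference between the Diabetic effects was tested with library as a block. Between pairs and endothelial-only barcodes no gene of 15112 was called by edgeR (401 at an unadjusted p under 0.05). Ackr1 came nearest, with a difference of 2.24 (adjusted p = 0.0904). Without rod-rich or microglia barcodes 3 were larger and 3 smaller in pairs. Fabp4 (3.49, adjusted p = 0.0161), Ackr1 (2.44, 0.0449) and Plac9a (0.99, 0.0348) were larger. Hbb-bt, a globin gene, Mgp and Cebpb were smaller, at -6.48, -1.33 and -1.46. Between pairs and pericyte-only barcodes 6 of 11829 genes differed (0.0507%), all with a smaller effect in pairs, and they rest on few UMIs in the 224 pericyte-only barcodes.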

How the data were processed

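Cells of 4 mouse retina libraries were enriched for CD31 and read as 3′ single-cell RNA. The deposited values are raw UMI counts per gene and barcode, made by the authors. The submitters' processing notes name Cell Ranger 7.0.0, STAR 2.7.10b and mm10. Groups and replicate numbers came from the labels. Counts of barcodes passing a rule were summed per library and given as CPM, scaled to the summed UMIs. Diabetic was compared with Control by edgeR 4.0.16 (R 4.3.3; TMM scaling, its filter on low counts, quasi-likelihood test, Benjamini-Hochberg adjustment over all genes tested, threshold 0.05). The 10 genes of the rule stayed in the fits and out of the counts of calls. Differences between effects were fitted with library as a block. DESeq2 1.42.0 was an alternative. Others were other scaling, no filter, leaving out each library, a stricter rule (at least 8 endothelial and 6 pericyte UMIs), thinning to 1000 UMIs, equal barcode numbers, and leaving out Scrublet calls, blood cell RNA or rod-rich barcodes. Leaving out blood cell RNA, leaving out rod-rich barcodes in the single classes and in the differences between effects, the Poisson fit without rod-rich barcodes, DESeq2 in the single classes, and repeats of the fits within the smaller set of pairs were chosen after seeing the data. The fits were tested on simulated data. Depth per library is given with the results, and intervals are 95%.

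The members and gene lists were chosen with earlier results of these data known. Genes named are all called genes, if fewer than 10 a direction, averaging 20 CPM or more without overlap of the groups, up to 4 genes a list by size of change, and a fixed set. Sele, Csf2rb, Icam1, Dusp2, Hsp90aa1, Hspa8, Fabp4, Igfbp5, Adamts1, Plac9a, Hbb-bt, Mgp and Cebpb fall outside this rule and were named after their values were seen. Gene positions are from the GENCODE annotation of GRCm38. Reads from overlapping or near-identical genes may be uncertain. Doublets were not removed, since the barcodes sought are of that kind.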

Additional observations from a re-analysis of the deposited data

Results flagged for a closer look

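For 6 genes the Diabetic effect differed between pairs and pericyte-only barcodes in the test of that difference (edgeR's quasi-likelihood test with library as a block). In each the effect was smaller in pairs. The differences in log2 fold change were -2.12 for Apoe, a lipid carrier gene (adjusted p = 0.031), -2.34 for the immediate early gene Egr1, -1.98 for the retinoid-binding Müller glia gene Rlbp1, -3.37 for the transcription factor gene Klf4, and -4.71 and -10.2 for the interferon-induced genes Ifit3 and Isg15. In pericyte-only barcodes Apoe had 24 and 7 UMIs in Control and 61 and 64 in Diabetic, and Egr1 6, 3, 43 and 67. Ifit3 had 1, 0, 2 and 23 UMIs, Isg15 0, 0, 1 and 16, and Klf4 3, 0, 6 and 31, so Diabetic 2 held most of them. With no Control UMI, the fitted value of Isg15 depends on the prior count and is no measure of size. No gene was called without Control 2 or without Diabetic 2.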

How the results depend on the processing

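Every one of the 13 calls in all pairs was kept without rod-rich or microglia barcodes, without each library, with the replicate block, without TMM, without the filter, without Scrublet calls or blood cell RNA, and at the mitochondrial limit of 10%. DESeq2 lost Lrg1, equal barcode numbers lost Sele, thinning lost 5, and the stricter rule kept only Scgb3a1 and Hsph1. The count higher, 12, became 53 with DESeq2, 69 with equal numbers, 239 without the filter, 169 without rod-rich barcodes, 33 without Scrublet calls, 1 with the stricter rule, 49 with thinning and 46 to 739 leaving out a library. The count lower, 1, became 7, 26, 76 and 89 under the first 4, 28 with thinning and 7 to 687 leaving out a library. Without rod-rich barcodes, DESeq2 gave 102 higher and 52 lower, and leaving out a library 168 to 316 and 96 to 218. Endothelial-only counts (769 and 423) became 365 and 155 with DESeq2, 257 lower without TMM, 1268 higher without the filter (617 lower), 352 higher without rod-rich barcodes, and 239 to 980 and 101 to 592 leaving out a library. Pericyte-only counts (5 and 2) became 0 and 0 with DESeq2, 1 and 0 without TMM, 10 higher without the filter, 0 lower without rod-rich barcodes, and 2 to 7 and 0 to 3 leaving out a library. The difference from endothelial-only gave 1 and 3 without the filter, 3 and 3 without rod-rich barcodes, and 0 to 11 and 0 to 25 leaving out a library. The difference from pericyte-only (0 and 6) gave 2 higher without TMM, 0 lower without the filter, 2 and 12 without rod-rich barcodes, and 0 to 5 and 0 to 11 leaving out a library. The cause was not tested.

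The labels tie same-numbered libraries by a number only, and their deviations correlated at 0.34 in pairs, with 2 numbers. Control 1 and Diabetic 1 held 6394 and 7991 barcodes, against 3091 and 3934 in Control 2 and Diabetic 2. Median pair depth was 8602 and 7949 against 13294.5 and 11790 UMIs. Whether the number marks a batch is not given. With the replicate block the counts were 223 higher and 89 lower in all pairs, 528 and 400 without rod-rich barcodes, 1075 and 752 in endothelial-only and 21 and 30 in pericyte-only barcodes.

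The pericyte weight of the mixture, 48.2% on average, became 56.3% with pooled references, 69.4% with the stricter rule, 30.7% with a Poisson fit and 18% with that fit without rod-rich barcodes. Small log2 fold changes reversed. Without Scrublet calls they were 0.063 for Rgs5, 0.062 for Atp13a5, 0.029 for Tek and 0.11 for Ednra. Cspg4 had -0.060 without rod-rich barcodes and -0.070 with the stricter rule. With thinning Angpt2 had 0.078 and Tek 0.045. Leaving out a library gave -0.29 to 0.15 for Rgs5, -0.42 to 0.039 for Vtn, -0.053 to 0.44 for Ndufa4l2, -0.22 to 0.28 for Cspg4, -0.083 to 0.35 for Cox4i2, -0.53 to 0.0035 for Pdgfb, -0.56 to 0.15 for Angpt2, -0.35 to 0.18 for Tek, -0.41 to 0.35 for Ednra and -0.29 to 0.14 for Cdh2. The 224 pericyte-only barcodes limit what could be called there.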
